A study of Mus musculus with 12 samples.

Results

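The comparison described here asked which genes of the U11-deficient embryonic pallium depended on the transcription factor p53. It set 4 double-knockout embryos (dKO) against 4 single-knockout embryos (cKO), 8 of the 12 embryos of the series. The cKO embryos had the genotype Rnu11flx/flx::Trp53wt/wt::Emx1-Cre+ and lacked U11 in Cre-expressing cells. The dKO embryos were Rnu11flx/flx::Trp53flx/flx::Emx1-Cre+ and lost Trp53 in the same cells. The 4 control embryos, Rnu11wt/flx::Trp53wt/wt::Emx1-Cre+, carried 1 floxed Rnu11 allele and the same Cre, and are given as levels only. All embryos were labelled C57/Bl6, at stage E13.5, and the dorsal telencephalon (pallium) was dissected for total RNA sequencing. Emx1-Cre acts in pallial progenitors and their descendants, so blood-derived, vascular and other cells of different origin keep intact alleles. No group among these samples lost Trp53 with U11 intact, and the cKO embryos carried no floxed Trp53 allele.

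U11 is a short structural RNA that helps the minor spliceosome recognise the rare minor introns of a limited set of genes. p53, encoded by Trp53, is held low by the ubiquitin ligase Mdm2 and accumulates under stresses such as DNA damage or delayed mitosis. It binds DNA as a tetramer, at a pair of adjoining half-sites, and activates genes for cell cycle arrest, death, metabolism and its own feedback control.

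Levels are TPM as deposited, that is, transcript abundance scaled for gene length and for the library's total. Differences are dKO minus cKO on the log2(TPM + 1) scale, after each library was shifted by its median difference from the mean library. This scale understates the change of genes near or below 1 TPM. The shift removed between 0.04 and 0.28 from the cKO libraries and between -0.16 and -0.10 from the dKO libraries. Without it, the median difference of all genes was -0.26, so every change below is relative to the bulk of genes. Nuclear protein-coding genes took 16.1% to 19.99% of the TPM in cKO libraries and 14.4% to 15.5% in dKO libraries. The pallial transcription factor Emx1 stood between 4.88 and 8.69 TPM over the cKO and dKO embryos, whereas Nkx2-1, a marker of the ventral telencephalon, did not exceed 0.0337 TPM. By the level of Xist, 3 cKO embryos and 1 dKO embryo were female, and counts from a fit with sex as a covariate are given beside the list counts described where they differ.

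Trp53 and Rnu11, the targeted genes, were read first. Trp53 was at 4.18, 4.04, 3.92 and 4.83 TPM in cKO embryos 1 to 4 and at 0.920, 1.49, 1.13 and 1.36 TPM in the dKO embryos. The groups did not overlap, and the dKO mean was 28.9% of the cKO mean. The difference of -0.97 had an exact two-sided permutation p of 0.0286, the smallest that 70 assignments allow, or 0.0571 adjusted over both genes. In the limma fit across all genes it had an adjusted p of 0.000952. Rnu11 was at 159, 145, 115 and 158 TPM in cKO and at 145, 142, 169 and 199 TPM in dKO, against 521 to 724 TPM in the control embryos. Its groups overlapped, and its difference of 0.45 (0.18 without the shift) had an exact two-sided permutation p of 0.0571, adjusted 0.0571.

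More protein-coding genes fell than rose in dKO. Over the 8 libraries 11955 genes averaged 1 TPM or more, and limma called 420 of them (3.51%) at a Benjamini-Hochberg adjusted p under 0.05. Of these genes 10234 were protein-coding, and 309 of those were called (3.02%). Of the 309, 242 fell in dKO, 2.36% of those tested, and 67 rose, 0.655%. In 308 of them the 4 dKO and 4 cKO values did not overlap, whereas over all protein-coding genes dKO lay wholly below cKO in 7.52% and wholly above in 6.04%. A decrease of at least 1 on the log2 scale was seen for 32 of them, and an increase of that size for 1, Fgf17. The 26 fallen genes that belong to lists of known p53 targets left 216 that are on none of those lists. The scaling shaped the split: as deposited, 3409 genes fell and 14 rose, and with equal protein-coding totals 491 fell and 55 rose. The number of calls also depended on single embryos. It was 97 without cKO embryo 1, 94 without cKO 2, 127 without cKO 3, 156 without dKO 3 and 161 without dKO 4. With sex as a covariate, 73 genes fell and 16 rose. In all 8 fits that each left out 1 embryo, 83 of the 309 kept their call, 72 of them lower, including 23 on the p53 lists.

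**Figure D1:**
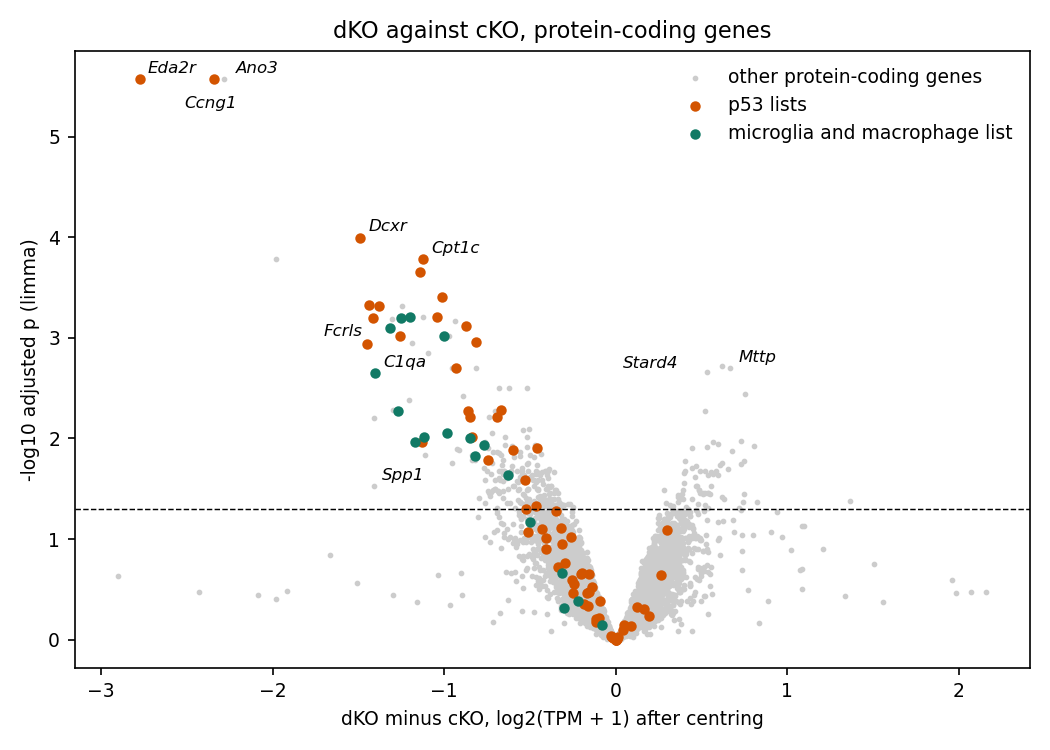
Each point is 1 protein-coding gene, with the dKO minus cKO difference in log2(TPM + 1) after centring on the horizontal axis and the negative log10 of the limma adjusted p on the vertical axis. The dashed line marks an adjusted p of 0.05. Eda2r, Ccng1 and Ano3 lie apart at the upper left, with differences of -2.78, -2.35 and -2.29.

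Of 91 genes on 6 p53 target lists, 68 passed the filter on low values. Among these 68 members 26 fell (38.2%) and none rose, beside 2.36% and 0.655% of all protein-coding genes. The median difference was -0.32, beside 0.00 over all protein-coding genes. Some members, among them Eda2r and Cdkn1a, were below 1 TPM in every dKO embryo and passed the filter only through their cKO levels. Such members could enter the count mainly as decreases. With sex as a covariate 21 of the 68 fell, and leaving out single embryos gave 23 to 29. In bulk tissue, fewer cells of a type and less RNA per cell cannot be told apart, here or for any gene below.

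The feedback regulators had 4 of 10 members lower. Ccng1 encodes cyclin G1, which recruits a phosphatase to Mdm2. It was at 44.2, 45, 46.7 and 54.7 TPM in cKO embryos 1 to 4 and at 6.30, 6.32, 7.74 and 7.44 TPM in dKO embryos 1 to 4, close to the 7.50 to 9.06 TPM of the control embryos. The groups were far apart, with a difference of -2.35 ± 0.09 (SE; limma adjusted p = 2.67e-06). Trp53inp1, a nuclear protein that promotes p53-dependent death and autophagy, stood between 13.6 and 16.1 TPM in cKO and between 3.47 and 5.25 TPM in dKO, a difference of -1.26. Mdm2 fell from 26.1 to 29.2 TPM in cKO to 11.1 to 15.4 TPM in dKO, a difference of -0.85. Its relative Mdm4, which binds the activation domain of p53, fell by 0.60. In all 4 genes the dKO embryos lay wholly below the cKO embryos, but groups were separate in 308 of the 309 protein-coding calls.

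Arrest and growth control had 6 of 11 members lower, with a list median of -0.67. Cdkn1a encodes p21, the inhibitor of cyclin-dependent kinases through which p53 halts the cell cycle. It was at 3.51, 3.35, 3.47 and 4.12 TPM in cKO and at 0.169, 0.450, 0.673 and 0.410 TPM in dKO. The difference was -1.44 ± 0.11 (SE; limma adjusted p = 0.000476), and the groups did not overlap. Phlda3, a repressor of Akt signalling, went from 2.82 to 3.99 TPM in cKO to 0.312 to 0.672 TPM in dKO, a difference of -1.38. Psrc1, a microtubule-associated protein of the spindle, fell by 1.01, and the polo-like kinase Plk2 fell by 0.93. Zmat3, an RNA-binding zinc finger protein, and Gtse1, a microtubule-binding protein of G2, fell by 0.84 and 0.67. Btg2, an antiproliferative gene also used as a marker of neurogenic progenitors, did not follow. It lay between 14.9 and 20.6 TPM in cKO and between 14.1 and 15.5 TPM in dKO, and its difference was 0.05 with a 95% interval of -0.10 to 0.20.

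Among the cell death targets, 6 of 10 tested members fell, and the list median was -0.64. With sex as a covariate 5 fell, and Ei24 had a limma adjusted p of 0.0502. Eda2r, a receptor of the tumour necrosis factor receptor family that binds ectodysplasin A2, had the largest difference of all called protein-coding genes, in either direction. It was at 10.9, 11.2, 11.4 and 12.8 TPM in cKO and at 0.420, 0.327, 0.739 and 0.646 TPM in dKO, so its dKO mean was 4.60% of the cKO mean. The difference was -2.78 ± 0.10 (SE; limma adjusted p = 2.67e-06), and the control embryos lay between 0.714 and 0.953 TPM. Aen, an apoptosis-enhancing nuclease, stood between 8.40 and 10.4 TPM in cKO and between 2.57 and 3.18 TPM in dKO, a difference of -1.14. Bax, the pore-forming protein of the outer mitochondrial membrane, fell from 48.9 to 62.1 TPM in cKO to 21.2 to 29.1 TPM in dKO, a difference of -0.86. Pidd1, the scaffold that activates caspase-2, fell by 0.87, and Apaf1, the scaffold of the apoptosome, fell by 0.81. Ei24, a membrane protein of the endoplasmic reticulum, fell by 0.46. Groups did not overlap for any of these 6 genes, as for 308 of the 309 protein-coding calls.

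Several classical death genes were below the filter and have no test. Bbc3, which encodes Puma, was at 1.19, 1.38, 1.26 and 0.969 TPM in cKO and at 0.140, 0.512, 0.208 and 0.110 TPM in dKO. Pmaip1, which encodes Noxa, lay between 0.920 and 1.46 TPM in cKO and between 0.175 and 0.450 TPM in dKO. The death receptor Fas lay between 0.289 and 0.423 TPM in cKO and did not exceed 0.0397 TPM in dKO, and the receptor Tnfrsf10b and the membrane protein Perp were likewise highest in cKO. All 5 genes were higher in each cKO embryo than in any dKO embryo on the deposited scale, which holds for 24.9% of the 3796 protein-coding genes with a mean of 0.1 to 1 TPM.

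Outside these targets the death machinery moved little. In the Bcl2 family 2 of 13 tested members fell, namely Bax and the antiapoptotic Bcl2, which went from 3.17 to 4.21 TPM in cKO to 1.53 to 1.92 TPM in dKO. Bak1, the other pore former, had a difference of 0.16 with a 95% interval of -0.13 to 0.44, and the antiapoptotic Mcl1 had -0.05. Of 16 caspases and their platforms, Apaf1 and Pidd1 alone passed the test. Among the 5 tested receptors of the tumour necrosis factor family, Eda2r was the 1 member called.

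DNA repair and nucleotide supply had 1 call among 10 members. The member that fell was Polk, a translesion DNA polymerase. Its level was 9.46, 9.31, 9.72 and 9.61 TPM in cKO and 2.83, 1.49, 2.54 and 2.09 TPM in dKO. The dKO values scattered more than the cKO values but stayed well below them, with a difference of -1.45 ± 0.14 (SE; limma adjusted p = 0.00114). The nucleotide excision repair genes Ddb2 and Xpc had differences of -0.03 and 0.04, with 95% intervals of -0.28 to 0.23 and -0.14 to 0.23. Rrm2b, the p53-inducible ribonucleotide reductase subunit, narrowly missed the threshold at -0.35 (limma adjusted p = 0.0522), although its groups did not overlap. In a list of 23 genes for DNA damage and mitotic surveillance, limma called none. At an unadjusted p under 0.05, 4 of them were lower and 2 higher, and their median was 0.03.

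Metabolic, redox and autophagy targets had 7 of 19 members lower, with a median of -0.41, and 4 lower with sex as a covariate. Dcxr, a carbonyl and xylulose reductase, led them at 8.13, 7.92, 6.77 and 9.42 TPM in cKO and 1.54, 1.80, 2.00 and 1.36 TPM in dKO. The difference was -1.49 ± 0.09 (SE; limma adjusted p = 0.000101). Sesn2, a leucine-sensing inhibitor of mTORC1, stood between 3.06 and 5.21 TPM in cKO and between 0.374 and 0.738 TPM in dKO, a difference of -1.41. The related Sesn1 differed by -0.16, with a 95% interval of -0.36 to 0.04. Cpt1c, the neuronal carnitine palmitoyltransferase of the endoplasmic reticulum, fell by 1.13, and the epoxide hydrolase Ephx1 also fell by 1.13. Ephx1 had a limma adjusted p of 0.052 with sex as a covariate.

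Signalling and adhesion targets had 2 of 8 members lower, and 1, Zfp365, with sex as a covariate. Zfp365, a zinc finger protein that acts in DNA repair and neuronal morphology, was at 2.88, 2.66, 2.47 and 3.13 TPM in cKO and at 0.479, 0.573, 0.439 and 0.600 TPM in dKO, a difference of -1.04. The phosphatase Ptp4a3 fell by 0.53 and kept its call in 3 of the 8 fits that left out an embryo, where its highest limma adjusted p was 0.0854.

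**Figure D2:**
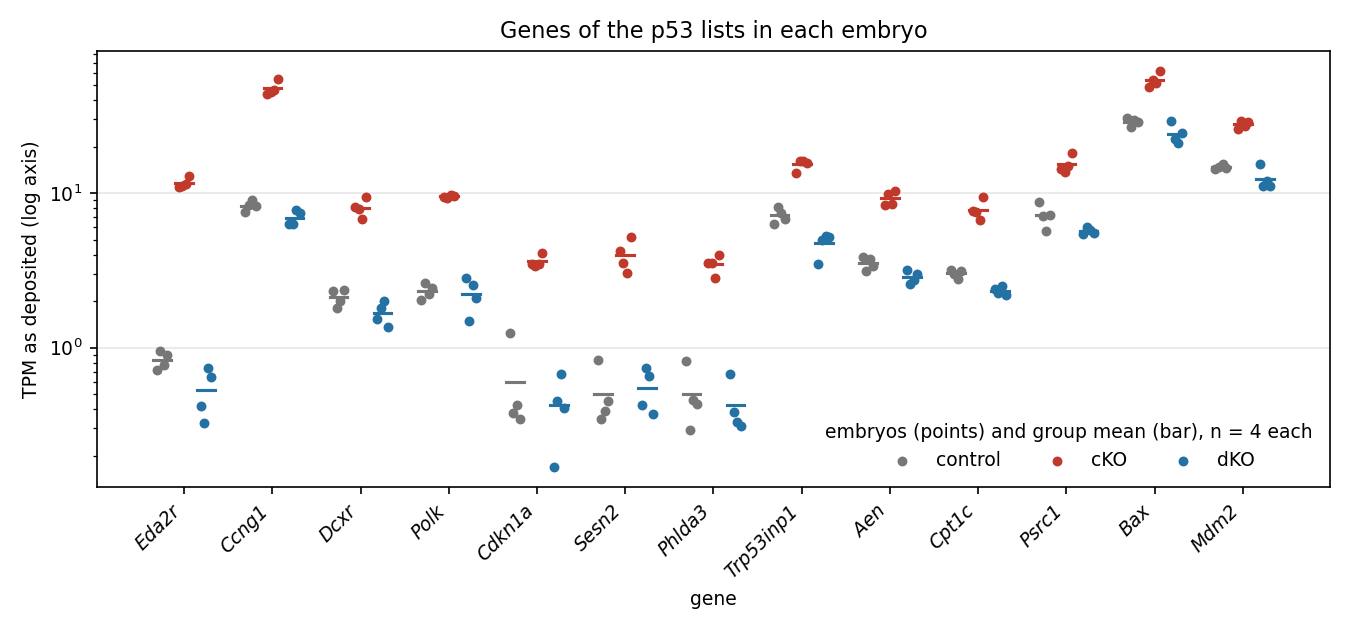
Deposited TPM, on a log axis, of 13 genes of the p53 lists in each embryo, with 4 embryos per group as points and the group mean as a bar. For every gene shown the cKO points lie above the dKO points, from Eda2r at 10.9 to 12.8 TPM in cKO to Mdm2 at 26.1 to 29.2 TPM.

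Promoter letters were searched to see which fallen genes carry the p53 element close to the start. The windows are those of RefSeq on GRCm38.p6, 250 bases before to 50 after each start, and both strands were read for pairs of the 10-base p53 half-site. A spacer of up to 13 bases and at most 2 mismatches over the pair were allowed. Of the fallen protein-coding genes with a window, 19 of 189 (10.1%) held such a pair, beside 374 of 8113 tested protein-coding genes (4.61%) and 4.71% of 27025 genes of any kind. The share was 5 of 23 fallen genes on p53 lists (21.7%), 14 of 166 fallen genes on none (8.43%), and 1 of 37 risen genes (2.70%). Over all tested p53 list members with a window, fallen or not, it was 10 of 59 (16.9%). These shares are descriptions of letters and say nothing of binding. The 5 pairs of list members are shown with pairs from 4 of the 14 genes on no p53 list. These 4 had the largest decreases of the 14 apart from 1700007K13Rik (-1.11), whose kind of symbol the naming rule leaves out. The pair of 1700007K13Rik has 1 mismatch and a spacer of 1 base. The pairs shown join the sequence to the values, with half-sites in capitals and any spacer in lower case.
Cdkn1a: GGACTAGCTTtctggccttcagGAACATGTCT
Ccng1: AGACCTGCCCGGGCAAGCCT
Gtse1: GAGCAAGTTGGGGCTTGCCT
Bax: AGGCAAGCTTtGAACTTGCGG
Zfp365: AGACTAGGCTGGGCAAGACT
Inka2: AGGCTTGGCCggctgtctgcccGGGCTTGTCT
Mapkapk3: TGGCCTGCCCaacccGGACTAGCCT
Ckap2: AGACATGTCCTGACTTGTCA
Lgmn: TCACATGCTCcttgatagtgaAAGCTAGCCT

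Each is written 5′ to 3′ on the strand of its gene, with positions counted from the first transcribed base as 0. Where a window held more than 1 pair, only the pair with the fewest mismatches is shown. The Cdkn1a pair, with 0 mismatches and a spacer of 12 bases, lies at chr17:29090906-29090937 (plus strand), from -73 to -42. Its second half-site is directly followed by the letters tgacatgttc, a further half-site with 1 mismatch. An adjoining pair with no spacer thus also stands there and is not marked. The Ccng1 pair at chr11:40755462-40755481 (minus strand) has 1 mismatch and no spacer and begins at -195. The pair of Gtse1 at chr15:85859945-85859964 (plus strand) spans the start, from -1 to 18, with 1 mismatch. Inka2 holds its pair at chr3:105705355-105705386 (plus strand), beginning at -103, with 1 mismatch and a spacer of 12 bases. The other 5 pairs have 2 mismatches each. They lie at chr7:45467079-45467099 for Bax, chr10:67912706-67912725 for Zfp365, chr9:107289849-107289873 for Mapkapk3, chr8:22186003-22186022 for Ckap2 and chr12:102439224-102439254 for Lgmn, all on the minus strand. The window of Eda2r held no such pair, which says only that these letters are not in that window.

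Genes on none of the p53 lists included some of the largest changes. Ano3, a membrane protein of the anoctamin family of ion channels and scramblases, was at 6.79, 6.66, 6.67 and 7.36 TPM in cKO. In dKO it was at 0.355, 0.205, 0.420 and 0.387 TPM, and in the control embryos between 0.145 and 0.272 TPM. Its dKO mean was 4.98% of the cKO mean, with a difference of -2.29 ± 0.08 (SE; limma adjusted p = 2.67e-06). None of the other 3 anoctamins tested was called by limma, and none had an unadjusted p under 0.05. Ano6, Ano8 and Ano10 had differences of 0.12, -0.17 and -0.11.

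Several regulators of signalling shared that pattern. Serpine2, the secreted protease inhibitor protease nexin-1, was at 9.26, 8.22, 8.24 and 9.54 TPM in cKO and at 1.77, 2.12, 2.62 and 2.80 TPM in dKO, a difference of -1.30. Arap2, a GTPase-activating protein for Arf proteins at focal adhesions, was between 2.83 and 3.71 TPM in cKO and between 0.429 and 0.605 TPM in dKO, a difference of -1.24. Mapkapk3, a kinase activated by p38, was between 2.49 and 3.19 TPM in cKO and between 0.221 and 0.607 TPM in dKO, a difference of -1.19. Plch2, a phospholipase C, fell by 1.12. The limma adjusted p of these 4 genes lay between 0.000479 and 0.00112, and each kept its call in all 8 fits that left out an embryo. Their groups did not overlap, which the rule for naming large decreases required.

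Other genes outside the lists span trafficking, RNA binding and respiration. Arpp21, an RNA-binding phosphoprotein of forebrain neurons, was at 7.49, 9.37, 7.67 and 5.09 TPM in cKO and at 1.48, 2.06, 1.62 and 1.24 TPM in dKO, a difference of -1.41. Cox6b2, the testis-type isoform of a cytochrome c oxidase subunit, fell by 1.30, and it was the 1 member called among 77 respiratory chain subunits. Exoc4, a subunit of the exocyst that tethers secretory vesicles, was between 13.9 and 17.1 TPM in cKO and between 4.83 and 6.20 TPM in dKO, a difference of -1.09. Inka2, an inhibitor of the kinase Pak4, was between 2.20 and 2.40 TPM in cKO and between 0.323 and 0.479 TPM in dKO, a difference of -0.95. Map3k20, the kinase also called Zak that senses stalled ribosomes, fell by 0.96 and kept its call in 5 of 8 fits without an embryo. Dcaf4, a substrate adaptor of Cul4 ubiquitin ligases, fell by 0.74, and the metallothionein Mt1 fell by 0.70. Exoc4, Inka2, Map3k20, Dcaf4 and Mt1 were chosen after their values were seen.

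**Figure D3:**
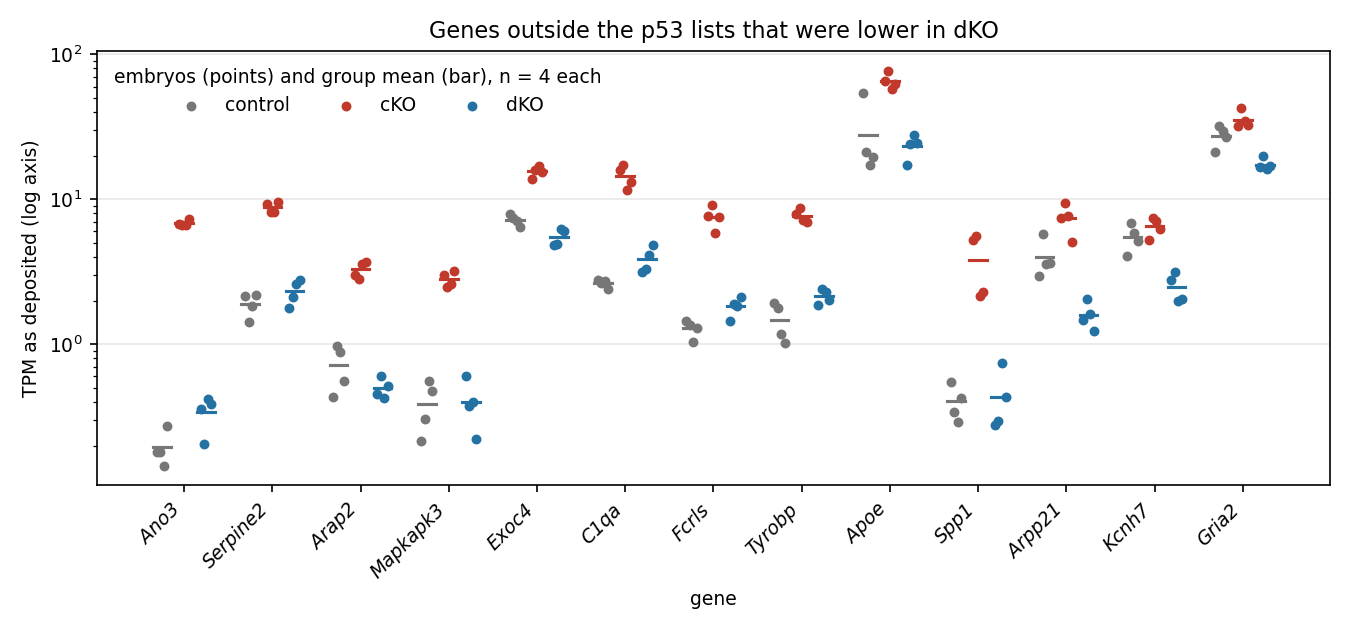
Deposited TPM, on a log axis, of 13 genes outside the p53 lists in each embryo, with 4 embryos per group as points and the group mean as a bar. The cKO points lie above the dKO points for every gene. Spp1 has the widest scatter in cKO, from 2.15 to 5.60 TPM.

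Microglia and macrophage genes formed the list with the highest share of calls among those described here. Of 25 markers 18 were tested, 13 fell (72.2%), none rose, and the median was -0.92. Over all protein-coding genes 2.36% fell. Leaving out single embryos gave 11 to 14, and sex as a covariate gave 11. Summed over the tested markers, the level was 91.3 to 131 TPM in cKO, 29.7 to 44.1 TPM in dKO and 24.4 to 31.2 TPM in the control embryos, so the dKO and cKO sums did not overlap. These cells arise outside the Emx1 lineage and enter the brain from the yolk sac.

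Complement genes were the most abundant of the called markers. C1qa, which encodes a chain of the initiator of the classical complement pathway, was at 15.8, 17.2, 11.7 and 13.2 TPM in cKO and at 3.17, 3.32, 4.12 and 4.83 TPM in dKO. The difference was -1.40 ± 0.15 (SE; limma adjusted p = 0.00226), and C1qb and C1qc, which lie beside it, fell by 1.27 and 1.17. Fcrls, an Fc receptor-like protein of microglia, went from 5.81 to 9.13 TPM in cKO to 1.45 to 2.12 TPM in dKO, a difference of -1.32. Aif1, which encodes the actin-binding protein Iba1, fell by 1.25, and the adaptor Tyrobp fell by 1.20. The phagocytic marker Cd68 fell by 1.00, the lysozyme Lyz2 by 0.98 and the fractalkine receptor Cx3cr1 by 0.85.

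All 18 tested markers had a negative sign, and as deposited 16 were called lower. P2ry12, the purinergic receptor of homeostatic microglia, was at 1.92, 1.45, 1.32 and 2.34 TPM in cKO and at 1.27, 1.25, 1.15 and 0.917 TPM in dKO. These deposited values did not overlap, with a difference of -0.35 (limma adjusted p = 0.0687). After the shift the difference was -0.08, with a 95% interval of -0.34 to 0.17. Csf1r, the growth factor receptor on which these cells depend, was between 1.38 and 2.14 TPM in cKO and between 0.521 and 1.09 TPM in dKO. Its difference was -0.32 (limma adjusted p = 0.216), and its centred values overlapped, whereas as deposited it was -0.58 (limma adjusted p = 0.0141). Below the filter, Trem2 was between 0.943 and 1.59 TPM in cKO and between 0.198 and 0.375 TPM in dKO, and Adgre1, Ptprc and P2ry13 were also higher in each cKO embryo than in any dKO embryo, beside the 24.9% of genes at such levels given above. Itgam was listed at 0 in 1 dKO embryo and did not exceed 0.129 TPM in any cKO embryo.

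Lipid and lysosomal genes that phagocytes express strongly stood beside these. Apoe, the apolipoprotein of brain lipid transport, was at 65.6, 77.5, 58.1 and 62.9 TPM in cKO and at 17.2, 24.1, 27.6 and 24.6 TPM in dKO, a difference of -1.20. Spp1, which encodes osteopontin, was at 5.27, 5.60, 2.15 and 2.28 TPM in cKO and between 0.276 and 0.738 TPM in dKO, a difference of -1.41. Its cKO embryos split widely, and its call held in 2 of the 8 fits without an embryo, where the highest limma adjusted p was 0.0863. In the autophagy and lysosome list 4 of 35 members fell, against a list median of -0.02. The count was 2 with sex as a covariate and 2 without cKO 1 or cKO 2, and Ctsd kept its call in each of these fits. The 4 that fell included the hexosaminidase subunit Hexa (-0.47) and the cathepsins Ctsd (-0.91) and Ctsz (-0.58). Ctsd was between 44.8 and 66.2 TPM in cKO and between 20.8 and 28.5 TPM in dKO. The protease legumain, Lgmn, fell by 0.84, and the lipid droplet protein Plin2 fell by 0.68, both chosen after their values were seen. The part of the microglial content in these differences was not tested.

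Neuronal genes leaned the same way with smaller differences. Among the 25 projection neuron markers tested, 23 had a negative sign, the median was -0.32, and 1 fell, the transcription factor Neurod2. Over all protein-coding genes 5072 of 10234 had a negative sign. With sex as a covariate none was called by limma. Neurod2 was at 19.1, 21.4, 15.6 and 19.7 TPM in cKO and at 9.65, 11.9, 6.91 and 6.49 TPM in dKO, a difference of -0.80 that held in 2 of 8 fits without an embryo. The summed level of the markers was 413 to 490 TPM in cKO, 226 to 336 TPM in dKO and 325 to 358 TPM in the control embryos. The highest dKO sum was that of embryo 2, and without it 5 markers were called instead of 1. The layer markers Tbr1, Fezf2 and Bcl11b had differences of -0.02, -0.04 and -0.16.

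Glutamate receptors had 3 of 6 members lower, all subunits of the AMPA class that carries fast excitation. Gria2 was at 31.8, 42.6, 34.8 and 32.7 TPM in cKO and at 16.7, 19.8, 16.2 and 16.9 TPM in dKO, a difference of -0.72 ± 0.11 (SE; limma adjusted p = 0.0137). Gria3 and Gria4 fell by 0.67 and 0.50. Gria2 alone kept its call with sex as a covariate and without cKO 1, cKO 2, cKO 3, dKO 3 or dKO 4. Grin2b, an NMDA receptor subunit, had a difference of -0.58 and was not called.

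Inhibitory receptors and channels gave few calls. Glra2, a glycine receptor subunit of immature neurons, and Gabra2, a GABA receptor subunit, fell by 0.74 and 0.57 among 8 members. The calcium channel subunits Cacna2d1 and Cacna2d3 fell by 0.76 and 0.71 among 10, all 10 of which had a negative sign. Kcnh7, a potassium channel of the Erg class, fell by 0.84, from 5.24 to 7.47 TPM in cKO to 1.99 to 3.16 TPM in dKO, and was the 1 potassium channel called of 10. The sodium channel subunit Scn3b fell by 0.73 and was the 1 sodium channel called of 4. With sex as a covariate, none of these genes other than Kcnh7 was called by limma. Without cKO 1, cKO 2, cKO 3, dKO 1 or dKO 4, limma called none of the inhibitory receptors, calcium channels or sodium channels. The potassium channel count was 0 without cKO 2 and 1 without any other embryo.

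At the synapse and the growth cone calls were few and most signs were negative. Over all protein-coding genes 2.36% fell, and 5072 of 10234 had a negative sign. Of 29 synaptic vesicle and release genes 24 had a negative sign and 3 fell. Snap25, a membrane fusion protein of the presynapse, was at 4.32, 4.28, 4.00 and 3.18 TPM in cKO and at 1.29, 1.72, 1.35 and 1.88 TPM in dKO, a difference of -0.68 (limma adjusted p = 0.0344) with groups that did not overlap. The complexin Cplx2, which clamps vesicles before release, fell by 0.46. Of 41 axon guidance genes, the ephrin receptors Epha5 and Epha3 fell by 0.71 and 0.56. Of 36 cytoskeleton and migration genes 34 had a negative sign, and Gap43, a growth cone protein, and Reln, the secreted guide of migrating neurons, fell by 0.68 and 0.76. Reln stood between 30.9 and 37.9 TPM in cKO, 12.9 and 21.3 TPM in dKO and 10.9 and 19 TPM in the control embryos. The mean centred log2 level of the cytoskeleton list was 4.15 in dKO embryo 2, within the cKO range of 4.03 to 4.26. In the other dKO embryos it lay below that range. For axon guidance, dKO embryos 2 and 3 lay within the cKO range of 2.46 to 2.62, and dKO embryos 1 and 4 below it. Except for Epha3, the calls of the genes named here for synapse and growth cone held in 3 or fewer of the 8 fits without an embryo, and with sex as a covariate none held.

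**Figure D4:**
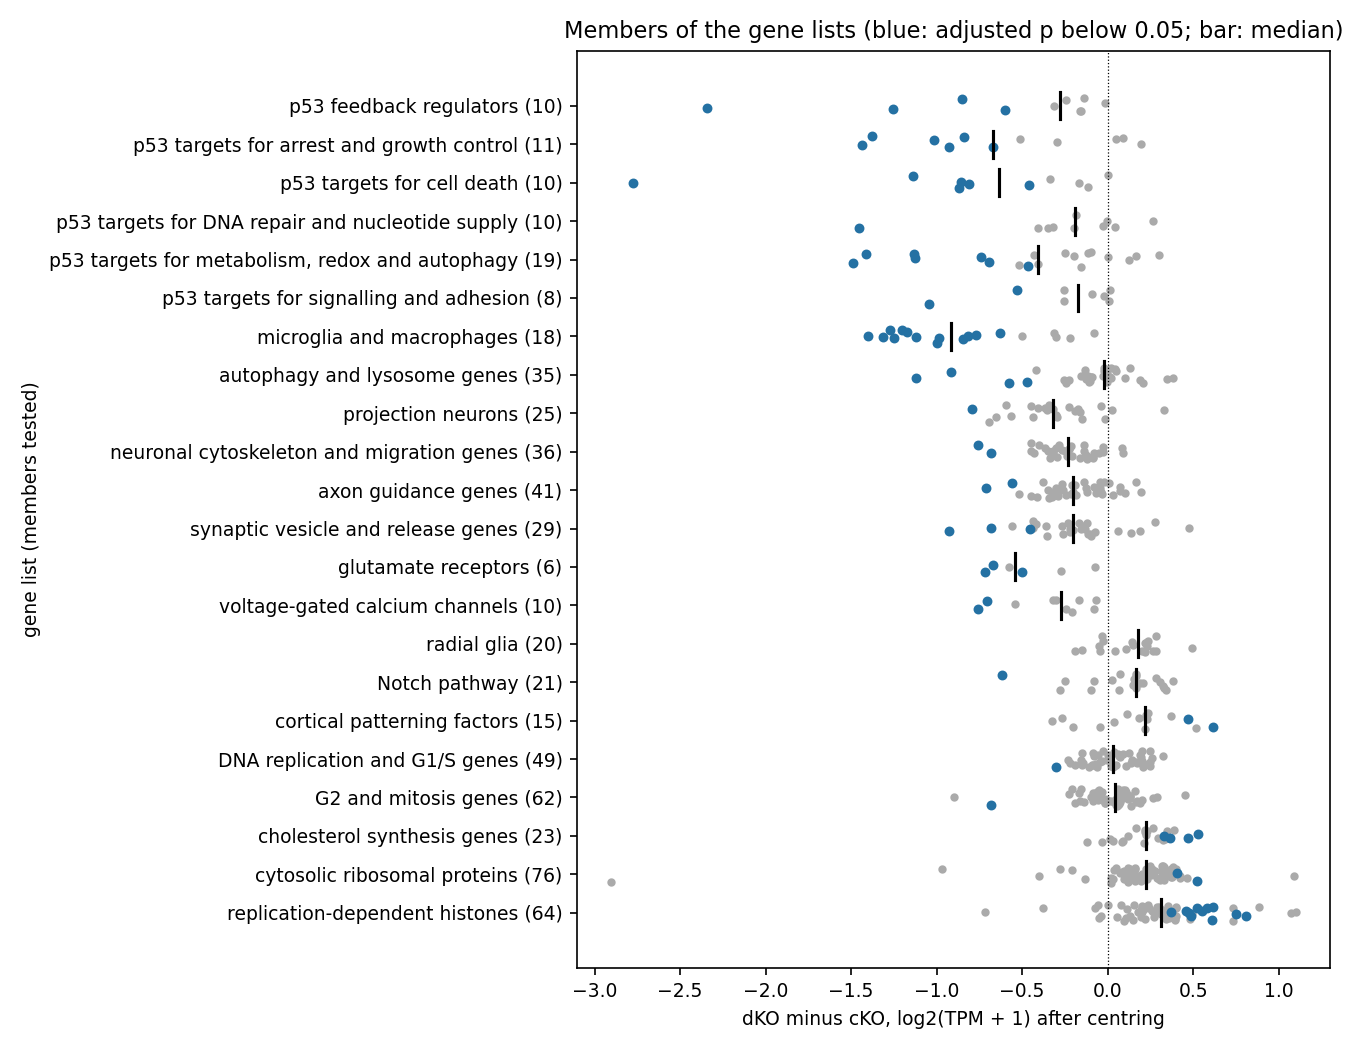
Each point is a tested member of a gene list, placed by its dKO minus cKO difference in log2(TPM + 1) after centring, with called members in blue, other members in grey and the list median as a bar. The medians of microglia and macrophage genes (-0.92) and of the p53 lists for arrest (-0.67) and death (-0.64) lie farthest to the left, and that of histones (0.31) farthest to the right.

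Progenitor and cell cycle genes moved little on this scale. Of 20 radial glia markers and 13 intermediate progenitor markers limma called none. At an unadjusted p under 0.05, 5 and 4 of them were higher and none lower. The medians were 0.17 and 0.05, but -0.09 and -0.22 as deposited, so their direction follows the scaling. Among 49 genes of DNA replication and 62 of G2 and mitosis, with medians of 0.03 and 0.04, 1 each was called. Rrm2, the replicative subunit of ribonucleotide reductase, fell by 0.31, held in 1 of 8 fits without an embryo, and was not called with sex as a covariate. Ckap2, a spindle protein whose promoter pair is printed above, was at 30.6, 33.4, 33.3 and 39.8 TPM in cKO and at 16.5, 16, 18 and 18.4 TPM in dKO, a difference of -0.68 ± 0.08 (SE; limma adjusted p = 0.00316). Rb1, the retinoblastoma protein that restrains entry into S phase, fell by 0.64, from 12.1 to 16.5 TPM in cKO to 6.06 to 8.20 TPM in dKO. The proliferation marker Mki67 differed by -0.06, with a 95% interval of -0.37 to 0.25.

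The genes higher in dKO were fewer and changed less. Mttp, the microsomal transfer protein that loads lipid onto lipoproteins, was at 2.93, 2.81, 2.70 and 3.31 TPM in cKO and at 3.91, 4.65, 4.42 and 3.78 TPM in dKO. The groups did not overlap as deposited, and the difference was 0.67 ± 0.07 (SE; limma adjusted p = 0.002). The control embryos, at 1.39 to 1.83 TPM, lay below both. Fbxo44, a substrate receptor of a ubiquitin ligase, was between 5.33 and 6.51 TPM in cKO and between 7.47 and 8.25 TPM in dKO, a difference of 0.62. Kat6b, a histone acetyltransferase, was at 10.3, 10.4, 11.2 and 11.2 TPM in cKO and at 13, 18.9, 15.3 and 14.1 TPM in dKO, a difference of 0.73. Cnot6l, a deadenylase of the Ccr4-Not complex, rose by 0.60, and Hemk1, a methyltransferase, rose by 0.68. These 5 genes kept their call in all 8 fits without an embryo.

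Rbm20, a splicing regulator known from heart muscle, also rose. It was at 1.02, 1.53, 1.42 and 1.39 TPM in cKO and at 2.87, 2.05, 2.21 and 1.79 TPM in dKO, a difference of 0.73. Prpf3, a protein of the U4/U6 particle, rose by 0.72, and Snrnp200, the helicase that unwinds U4 from U6, rose by 0.52. Coil, the scaffold of Cajal bodies, and Uspl1, a SUMO protease of the same bodies, rose by 0.53 and 0.57. Pcf11, a transcript cleavage factor, rose by 0.54. Snrnp200, Coil and Pcf11 were chosen after their values were seen. Prpf3 and Pcf11 kept their calls in 1 of 8 fits without an embryo. Of the genes named here Coil alone kept its call in all 8, and Rbm20, Snrnp200 and Uspl1 each lost theirs in at least 1. None of the 16 minor spliceosome proteins was called by limma, and at an unadjusted p under 0.05 1 was lower and 1 higher.

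Of 15 cortical patterning factors 2 rose, with a median of 0.22. As deposited 3 were called lower and none higher, with a median of -0.05. On the centred scale 0 rose without cKO 1 or cKO 2, 2 without dKO 4 and 1 without any other embryo. Sp8, a transcription factor of the rostral pallium, was at 0.674, 0.878, 0.687 and 0.949 TPM in cKO and at 1.33, 1.68, 1.16 and 1.01 TPM in dKO, a difference of 0.62. Dmrta2, a factor that maintains pallial progenitors, rose by 0.47. Fgf17, a signal of the rostral patterning centre, was at 0.555, 0.556, 0.642 and 2.31 TPM in cKO and at 1.44, 2.85, 4.68 and 4.15 TPM in dKO. Its groups overlapped through cKO embryo 4, and its difference of 1.36 held in 2 of 8 fits without an embryo. With sex as a covariate limma called none of these 3 genes.

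Cholesterol synthesis had 4 of 23 members higher and a median of 0.23, which was -0.04 as deposited, where 2 members were called lower and none higher. The count was 1, Stard4, with sex as a covariate, 1 without cKO 1, cKO 2 or cKO 3, 2 without cKO 4, dKO 1, dKO 2 or dKO 3, and 3 without dKO 4. Stard4, a sterol transfer protein, was at 4.32, 4.68, 4.17 and 5.51 TPM in cKO and at 5.86, 5.84, 5.83 and 5.58 TPM in dKO, a difference of 0.53 (limma adjusted p = 0.00219). Msmo1, a sterol oxidase, rose by 0.47 and held in 5 of 8 fits without an embryo. The fatty acid desaturases Scd1 and Scd2 rose by 0.60 and 0.54. Of 22 glycolysis genes tested, only the enolase Eno1 was called, higher by 0.57, and the list median was -0.06. At an unadjusted p under 0.05, 3 glycolysis genes were lower and 2 higher. As deposited 10 of them were called lower and none higher.

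Ribosomal protein and histone medians varied in size with the scaling too. Under the 4 other scalings the histone median stayed positive, and the ribosomal median was negative only as deposited. Of 76 cytosolic ribosomal protein genes, 70 had a positive sign, with a median of 0.22 (-0.04 as deposited), and 2 rose, among them Rpl37a, a protein of the large subunit. Both calls were lost in every fit without an embryo and with sex as a covariate. Of 64 replication-dependent histone genes 11 rose, with a median of 0.31 (0.04 as deposited). The count was 1 with sex as a covariate and ranged from 1, without cKO 1 or dKO 4, to 14, without cKO 4. Hist1h2ai was at 44.9, 49.0, 57.4 and 54.9 TPM in cKO and at 71.4, 93.2, 68.3 and 69.6 TPM in dKO, a difference of 0.81. The control embryos had more of it, between 102 and 424 TPM. Histone genes are near-identical copies, and how reads were shared among them is not given in the sources used here.

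**Figure D5:**
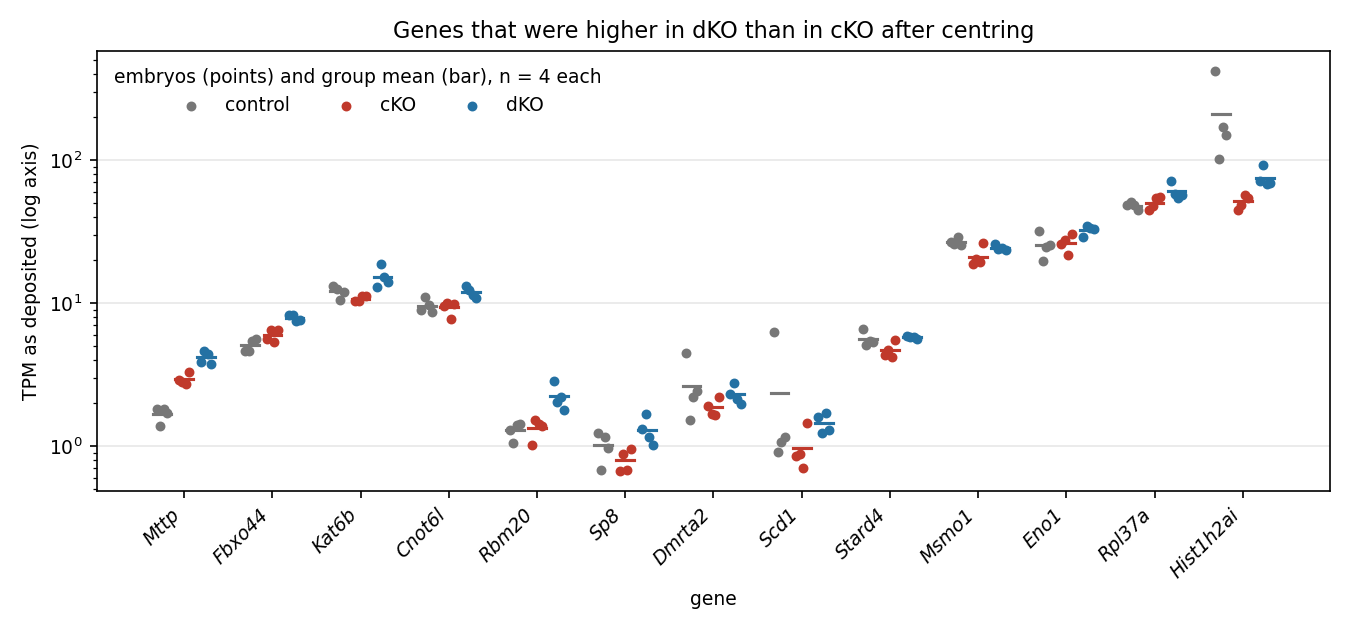
Deposited TPM, on a log axis, of 13 genes called higher in dKO after centring, with 4 embryos per group as points and the group mean as a bar. The groups lie close together, with Mttp at 2.70 to 3.31 TPM in cKO and 3.78 to 4.65 TPM in dKO, and the deposited values of Eno1, Scd1, Msmo1, Dmrta2 and Rpl37a overlap between cKO and dKO.

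Markers of the other cell types the dissection could hold gave no call by limma in vessels and pericytes (15 tested), meninges and fibroblasts (11), red blood cells (11) or hem and choroid plexus (14). At an unadjusted p under 0.05, the lower and higher counts were 2 and 2, 0 and 1, 1 and 1, and 4 and 0. The summed choroid and hem level varied most between embryos, from 129 to 314 TPM in cKO and from 98.0 to 352 TPM in dKO. Of 7 interneuron and ventral telencephalon markers tested, 1 fell and 1 rose, and the median was -0.03. At an unadjusted p under 0.05, 1 was lower and 3 higher. Sst, the neuropeptide somatostatin, fell by 0.82, from 5.01 to 7.09 TPM in cKO to 1.94 to 2.67 TPM in dKO. Its call held in 5 of 8 fits without an embryo. The marker that rose was Sp8, described above. With sex as a covariate 1 marker fell and none rose.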

How the data were processed

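The deposited values are TPM per gene symbol, 1 table per embryo; no header names the unit, and it was inferred from the values, since each table sums to 1000000. Per the labels' protocols, pallia were dissected into Trizol and RNA was purified on columns (Direct-zol), and per the series' design text stranded total RNA libraries were sequenced on a NextSeq500. The submitters' processing notes name HISAT2 and mm10 with no versions; the counting tool, annotation, strand setting and treatment of shared reads are not given in the sources used here, so genes that overlap or share sequence are uncertain. The depth behind each TPM value is unknown, because TPM is rescaled to a fixed total, so counting intervals are left out. TPM of total RNA also moves with abundant short RNAs.

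Of 54735 symbols, 54106 matched GENCODE M21, which gave 21871 nuclear protein-coding genes. Values were taken as log2(TPM + 1), filtered at a mean of 1 TPM over the 8 libraries and centred by median shift. They were fitted with limma 3.58.1 in R 4.3.3 (lmFit, eBayes with an intensity trend), with Benjamini-Hochberg adjustment. In data simulated with 200 genes changed by a log2 difference of 1 among 11955, 178 were recovered with 6 false calls. The simulated noise was independent between genes, with no effect of sex or of single embryos, so these rates need not hold for the real data. Nothing states separate litters, so p-values measure the spread between these embryos.

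The comparison, its members and the gene lists were chosen with earlier results of these data known. Named genes are both targets, the 20 largest decreases, the 15 largest increases, the 15 largest decreases outside the p53 lists and the 4 most changed called members of each list, among protein-coding calls with separate groups. That rule leaves out histone genes and symbols with Gm or Rik. The list rule also kept Fgf17, whose groups overlap. A few genes that the rule names are not reported here. Other genes, among them all uncalled ones, were chosen after their values were seen. Alternatives were 4 other scalings, a pseudocount of 0.1, no filter, a filter at 5 TPM, sample weights, the replicate block, a fit over all groups, leaving out X and Y genes, a minimum difference of 1, and each embryo left out. Sex as a covariate, read from Xist above or below 1 TPM, was added after the values were seen. Promoter windows are from RefSeq, GRCm38.p6.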

Additional observations from a re-analysis of the deposited data

Results flagged for a closer look

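In 290 groups of 4 embryos, one per gene named and group, 12 held an embryo whose gap to the nearest of the others, divided by the group's range, exceeded Dixon's 95% critical value. Chance alone gives about 14.5. Among p53 targets these were Phlda3 in dKO (0.890, embryo 1 high) and Fas in cKO (0.940, embryo 1 high). Ano3 in dKO had 0.872, with embryo 2 low at 0.205 TPM, and Ano10 in cKO had 0.832, with embryo 3 low. Epha3 in cKO had 0.969, with embryo 2 high at 27.2 TPM, and Sst in cKO had 0.836, with embryo 4 low. Of glycolytic genes, Eno1 in cKO had 0.873, with embryo 3 low, and Eno1 in dKO had 0.867, with embryo 1 low. The others were Uspl1 in cKO (0.922, embryo 1 low), Hist1h2ai in cKO (0.856, embryo 3 high), Mcl1 in dKO (0.906, embryo 2 low) and Adgre1 in dKO (0.841, embryo 4 high).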

How the results depend on the processing

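All 309 protein-coding calls kept their direction in every alternative fit that tested them, but their number depended on the settings. As deposited, 3765 genes were called, 3423 of them protein-coding (3409 lower, 14 higher). With equal protein-coding totals the counts were 691 and 546 (491 lower). Without a filter they were 2387 and 1720 (1674 lower), and with a mean of at least 5 TPM 198 and 157 (112 lower). Sample weights gave 807 and 630 (461 lower, 169 higher), and a fit over all 3 groups gave 713 and 541 (385 lower, 156 higher). A minimum difference of 1 left 58 and 33 (32 lower, 1 higher). Sex as a covariate, added after the values were seen, left 136 and 89 (73 lower, 16 higher), 85 of them among the 309. Leaving out 1 embryo gave 123 to 390 genes, 94 to 304 of them protein-coding, 81 to 257 lower and 13 to 66 higher. Fewer embryos or residual degrees of freedom go with these last fits, and the cause of the other changes was not tested. With a pseudocount of 0.1 the exact permutation p adjusted over both targets was 0.0286, with differences of -1.41 for Trp53 and 0.50 for Rnu11. Depth is unknown, so what it limits cannot be given.

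With the replicate block 86 genes were called, 65 of them protein-coding (58 lower, 7 higher), all 65 among the 309. Same-numbered cKO and dKO embryos had correlations of their deviations from the group means between -0.06 and 0.06, and other pairs between -0.10 and 0.14. The labels link these embryos only by a number. Correlations of so few embryos cannot decide whether same-numbered embryos shared a litter.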

Other observations

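Gm47283, a protein-coding gene model that the annotation places on chromosome Y, had the fourth difference in size among protein-coding calls, -1.98 (limma adjusted p = 0.000166), and was chosen after its values were seen. It was at 3.72, 4.73, 2.53 and 4.69 TPM in the cKO embryos and at 5.54, 6.002, 5.22 and 5.57 TPM in the control embryos, female embryos included. In dKO embryos 1 and 2 it was at 0.0295 and 0.0362 TPM, and in dKO embryos 3 and 4 it was listed at 0. In the control and cKO embryos its level did not follow the sex read from Xist. The labels give 1 strain for all embryos, and whether the background around the floxed Trp53 allele differs was not tested.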
